A study of Mus musculus with 31 samples.

Results

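Polycomb group proteins act in 2 families of complexes, and the RNA of 31 of their subunits was followed in female mouse cells with and without Xist. The members were named by symbol: the core and accessory subunits of Polycomb repressive complex 2 (PRC2) and the RING, PCGF, CBX, PHC and variant subunits of PRC1. For each symbol the RefSeq transcript with the highest total was used. All 31 were found among 24470 symbols, and all 31 were among the 12910 genes with enough reads to test.

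PRC2 methylates histone H3 at lysine 27, through EZH1 or EZH2, and accessory proteins steer it to chromatin. PRC1 ubiquitinates histone H2A through RING1 or RNF2; canonical forms carry a CBX reader of the PRC2 mark, and variant forms carry RYBP or YAF2 instead. Both marks coat the inactive X chromosome, where Xist RNA brings in variant PRC1 containing PCGF3 or PCGF5 and, after it, PRC2.

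Of the 31 samples in the series, the 6 RNA-seq libraries are used here, with 2 labelled biological replicates in each of 3 groups. All cells were dermal fibroblasts of female CAST/Ei x 129/Sv/Jae hybrids, grown in high-glucose DMEM with serum. WT cells carried intact Xist. The other 2 groups carried an intact active X and an inactive X without Xist (labelled XaWT XiΔXist), from 1 cell line and from a second one; they are called line 1 and line 2. Each deleted group was a single line, so the deletion and the line cannot be told apart. The p-values measure the spread between 2 libraries a group.

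The transcripts used held 3812307 to 7067518 reads per library. Xist itself had 429 and 633 CPM (counts scaled to library size) in WT and 0.273 to 1.08 in the 4 deleted libraries, as the labels state. Summed over 12 fibroblast markers the level was 4774 to 7491 CPM. Of these markers 1 was called, higher in line 1: Dcn, a matrix proteoglycan, had 61.9 and 26.9 CPM in WT against 243 and 156 in line 1 and 28.6 and 19.7 in line 2 (log2 fold change 2.19 in line 1, edgeR adjusted p = 0.0215). Keratinocyte markers summed to 0.141 to 0.960 CPM, endothelial markers to 1.12 to 5.33 and leukocyte markers to 2.72 to 14.1, the highest 2 in line 1 (14.1 and 6.82). In line 1 the leukocyte sum was mostly Cd68, at 13.0 and 4.91 CPM. Ptprc was at 0 and 0.136 CPM there, and Csf1r at 1.08 and 1.77 against 1.45 and 2.54 in line 2. The 11 proliferation markers summed to 2609 to 3262 CPM, with median log2 fold changes of 0.11 in line 1 and 0.01 in line 2. The part of these markers in the results below was not tested.

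Few Polycomb subunits changed in RNA level in the deleted lines. In line 1, the Polycomb-like protein gene Phf19 rose and the genes Epop, Rybp and Bcor fell; in line 2 no subunit passed the test. In bulk RNA, fewer cells that express a gene and less RNA per cell cannot be told apart. By edgeR's quasi-likelihood test with Benjamini-Hochberg adjustment over all genes, 4 of 31 members were called in line 1 (12.9%), against 14.3% of all genes tested; DESeq2 called the same number, against 14.4% of all genes. At an unadjusted p under 0.05 there were 6 members (19.4%, against 28% of all genes). Only 1 member was called higher, against 6.75% of all genes, and 3 were called lower, against 7.55%. The members' share was thus near the background. These fits had no term for replicate number, and the calls with such a term, a replicate block, are given at the end. In line 2, 0 of 31 were called by edgeR, against 3.58% of all genes (1.73% higher and 1.85% lower). In line 2, 3 members had an unadjusted p under 0.05 (9.68%, against 14.5% of all genes), and DESeq2 also called 0, against 4.5% of all genes.

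The median log2 fold change of the members was -0.02 in line 1 and -0.02 in line 2, beside 0.01 in both lines for all genes tested. In line 1, 25 of 31 members lay within 0.5 of 0 on the log2 scale (80.6%, against 70.1% of all genes), and in line 2, 30 of 31 did (96.8%, against 81.3%). Counted by libraries alone, 7 members had both line 1 libraries above both WT libraries and 9 had both below, that is 22.6% and 29%, against 25.4% and 25.6% of all genes. The same counts in line 2 were 6 above and 7 below, against 24.9% and 23.9% of all genes. Both lines were set against the same WT libraries, so agreement between the lines is not independent. The share of all genes with both lines on the same side of WT is not given here.

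**Figure D1:**
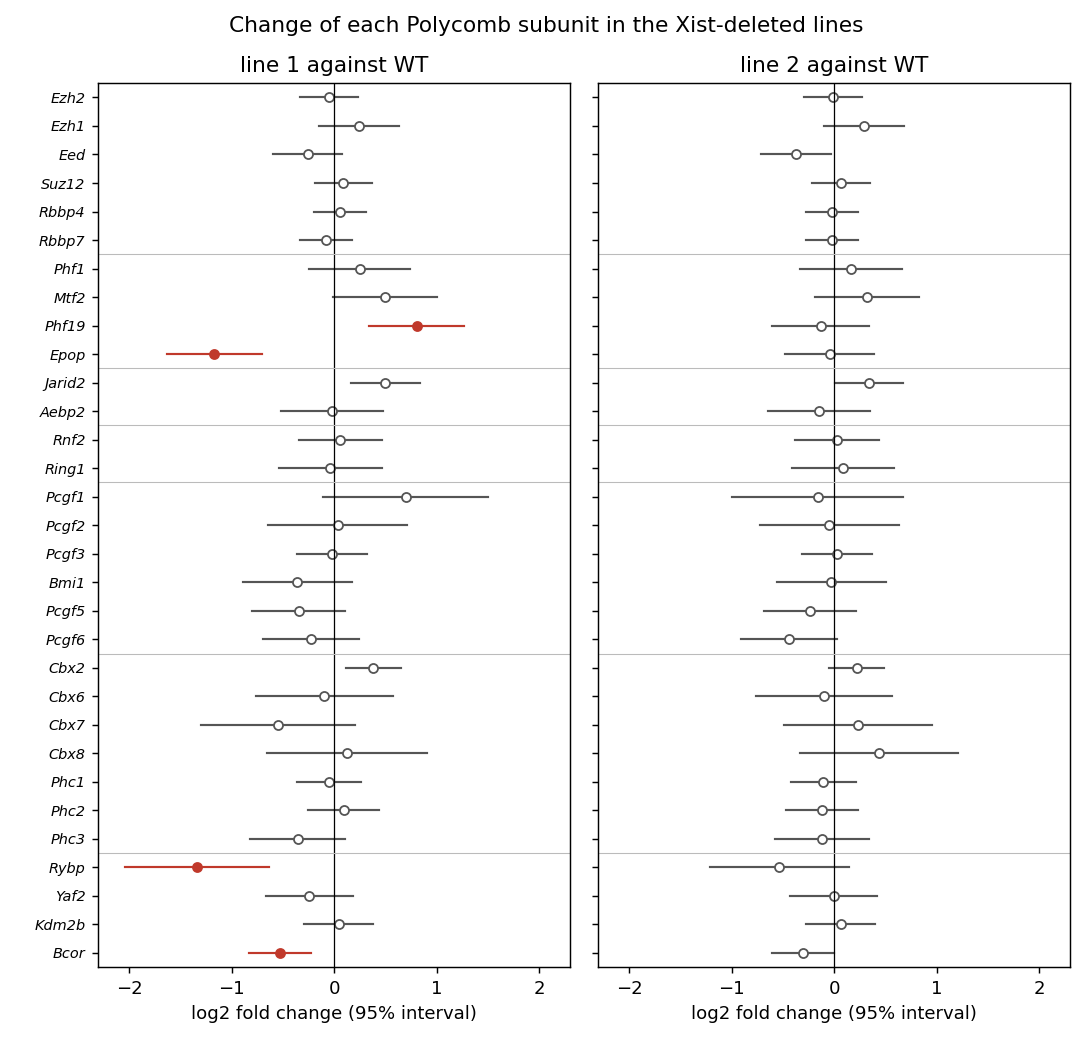
Log2 fold change of each of the 31 subunits in line 1 (left) and line 2 (right) against WT, with its 95% interval from edgeR; grey lines part the complexes, in the order PRC2 core, PRC2.1, PRC2.2, RING, PCGF, canonical PRC1 and variant PRC1. Filled red points are the 4 members with an adjusted p under 0.05, all in line 1.

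Promoter sequence was available for 26 of the 31 members in RefSeq's table for GRCm38.p6, as 300 bases from 250 before to 50 after a gene's start. For each member the promoter nearest to the start of the transcript used was taken. The starts were 79793 bases apart for Bcor, 849 for Pcgf2, 839 for Aebp2 and 570 for Phc1. They were 168 apart for Rnf2, 73 for Pcgf3 and the same for the other members. The promoters of Rybp, Yaf2, Epop, Pcgf1 and Cbx2 were not used here. The members' promoters held a median of 24 CpG dinucleotides (range 4 to 45), beside a median of 7 over all 32851 promoters of that table, and 2 of the 26 lay under that median. The lowest count, 4, was that of Aebp2. All 26 members had enough reads to test. Here and for the motifs below, the 32851 promoters were not limited to tested genes or to 1 per gene. E2F factors drive cell-cycle genes, and YY1 is the mammalian relative of a fly protein that recruits Polycomb. The E2F motif, spelled TTTCCCGC or TTTGGCGC on either strand, was in 3 of 26 member promoters, those of Phf19, Ezh2 and Suz12, and in 1.56% of all promoters. The YY1 motif AAGATGGCG, on either strand, was in 2, those of Phf19 and Phc3, and in 1.4% of all. The motifs do not overlap in these sequences, and a match describes the letters only.

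The promoters with the E2F motif and, for the X chromosome, that of Rbbp7, which has neither motif, are printed 5′ to 3′ on the gene's strand, with E2F and YY1 matches in capitals. The Phf19 promoter (chr2:34913927-34914226, minus strand) belongs to the one subunit that rose, and holds both motifs a few bases apart. The Ezh2 (chr6:47594981-47595280, minus strand) and Suz12 (chr11:79992856-79993155, plus strand) promoters belong to core subunits that were not called in either line. The Rbbp7 promoter (chrX:162760122-162760421, plus strand) belongs to the X-linked subunit whose reads were assigned to both alleles.
Phf19: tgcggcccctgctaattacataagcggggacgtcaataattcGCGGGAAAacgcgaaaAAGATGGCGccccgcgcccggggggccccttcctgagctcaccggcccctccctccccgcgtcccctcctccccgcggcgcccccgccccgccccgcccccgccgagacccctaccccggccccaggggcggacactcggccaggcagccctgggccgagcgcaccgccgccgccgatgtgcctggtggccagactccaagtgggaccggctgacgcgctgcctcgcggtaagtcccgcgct
Ezh2: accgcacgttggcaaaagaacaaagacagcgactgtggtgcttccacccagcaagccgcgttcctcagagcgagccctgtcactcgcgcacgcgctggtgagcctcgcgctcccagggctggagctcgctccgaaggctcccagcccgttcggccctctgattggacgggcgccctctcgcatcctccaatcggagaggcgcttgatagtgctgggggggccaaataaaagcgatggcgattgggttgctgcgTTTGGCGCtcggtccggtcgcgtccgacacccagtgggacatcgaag
Suz12: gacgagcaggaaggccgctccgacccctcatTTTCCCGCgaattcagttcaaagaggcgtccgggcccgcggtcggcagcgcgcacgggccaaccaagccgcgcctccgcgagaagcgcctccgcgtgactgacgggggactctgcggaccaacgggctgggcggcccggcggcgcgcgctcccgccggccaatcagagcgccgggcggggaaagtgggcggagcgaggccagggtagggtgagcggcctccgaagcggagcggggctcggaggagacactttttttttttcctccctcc
Rbbp7: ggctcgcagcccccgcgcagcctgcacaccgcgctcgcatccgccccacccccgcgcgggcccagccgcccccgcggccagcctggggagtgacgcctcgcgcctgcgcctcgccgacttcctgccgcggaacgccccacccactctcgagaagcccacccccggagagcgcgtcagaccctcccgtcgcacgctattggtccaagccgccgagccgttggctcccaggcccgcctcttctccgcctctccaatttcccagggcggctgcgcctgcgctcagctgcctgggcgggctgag

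In the core of PRC2, none of 6 genes was called in either line by edgeR; 0 had an unadjusted p under 0.05 in line 1 and 1 had in line 2, against 28% and 14.5% of all genes, and DESeq2 called 0. Levels are given as RPKM, TMM-scaled CPM per kilobase of transcript, so that genes can be compared. Ezh2, the main methyltransferase of dividing cells, stood at 34.6 and 35.7 RPKM in WT against 32 and 35.9 in line 1, and 34.9 and 34.8 in line 2. The 6 values overlapped fully. Its log2 fold change was -0.05 in line 1 (95% interval -0.33 to 0.24) and -0.01 in line 2 (-0.29 to 0.27).

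Ezh1, the weaker methyltransferase that is typical of resting cells, was at 8.53 and 9.47 RPKM in WT against 9.70 and 11.6 in line 1 and 10.7 and 11.3 in line 2. All 4 deleted libraries lay above both WT libraries. The log2 fold change was 0.24 in line 1 (SE 0.16, edgeR adjusted p = 0.403) and 0.29 in line 2 (SE 0.16, edgeR adjusted p = 0.527), which did not pass the test. Ezh1 made up 19.8% and 21.0% of the summed EZH RPKM in WT against 23.3% and 24.4% in line 1, and 23.4% and 24.5% in line 2. With 2 libraries against 2, an exact permutation test of such a share cannot go below p = 0.333, so shares within families are given without a test.

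Eed, which reads the H3K27 mark and turns PRC2 on, was at 28.2 and 31.9 RPKM in WT against 25.7 and 24.6 in line 1, and 22.1 and 24.2 in line 2. Every deleted library was below both WT libraries. The log2 fold change was -0.26 in line 1 (edgeR adjusted p = 0.303) and -0.37 in line 2 (95% interval -0.71 to -0.03, edgeR adjusted p = 0.291). Suz12, the scaffold of the complex, ranged from 20.4 to 22.8 RPKM over the 6 libraries. The histone chaperones Rbbp4 and Rbbp7, shared with other chromatin complexes, ranged from 38.6 to 42.6 and from 54.4 to 60.0 RPKM. Rbbp4 shares its span with Sync and Rbbp7 with Txlng, both on the opposite strand; the kit kept the strand, but no source used here says whether counting did.

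Of the 4 accessory subunits of the PRC2.1 form, 1 was called higher and 1 lower in line 1, against 6.75% and 7.55% of all genes. Phf19 (chr2:34893755-34913976 on mm10, minus strand), a Polycomb-like protein that anchors PRC2 at CpG-rich DNA, was at 7.22 and 7.36 RPKM in WT against 11.3 and 14.0 in line 1, and 5.96 and 7.27 in line 2. Both line 1 libraries lay above all 4 others. Phf19 was 1.75-fold higher in line 1 (log2 fold change 0.80, SE 0.19, edgeR adjusted p = 0.0394). In line 2 the log2 fold change was -0.13 (95% interval -0.60 to 0.33, edgeR adjusted p = 0.883).

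Epop (chr11:97627387-97629716 on mm10, minus strand), an elongin BC-binding partner of PRC2, was at 9.22 and 8.66 RPKM in WT against 3.95 and 3.98 in line 1, and 8.53 and 8.78 in line 2. Line 1 stood apart from every other library, and line 2 overlapped WT. Epop fell in line 1 (log2 fold change -1.17, SE 0.19, edgeR adjusted p = 0.0114) and had a log2 fold change of -0.04 in line 2 (95% interval -0.48 to 0.39). It lies 59.1 kb from Pcgf2 on chromosome 11, whose log2 fold change in line 1 was 0.03 (95% interval -0.64 to 0.71).

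For both genes the lines themselves differed. Between the lines 2 of 31 members were called by edgeR, against 12.6% of all genes, with 1 higher in line 2 (6.87% of all genes) and 1 lower (5.76%). Line 2 minus line 1 gave a log2 difference of -0.94 for Phf19 (SE 0.19, edgeR adjusted p = 0.0263) and 1.12 for Epop (SE 0.19, edgeR adjusted p = 0.0135). The other Polycomb-like genes, Mtf2 and Phf1, did not pass the test without a term for replicate number. Mtf2 was at 9.88 and 13.0 RPKM in WT against 13.7 and 18.5 in line 1 and 13.5 and 15.1 in line 2, a log2 fold change of 0.49 (edgeR adjusted p = 0.191) and 0.31 (edgeR adjusted p = 0.619). Phf1 had log2 fold changes of 0.25 and 0.16.

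In the PRC2.2 form, which binds ubiquitinated H2A, Jarid2 was at 6.74 and 6.19 RPKM in WT against 9.33 and 8.92 in line 1, and 7.96 and 8.37 in line 2. All 4 deleted libraries were above both WT libraries, with line 2 between WT and line 1. The log2 fold change was 0.50 in line 1 (SE 0.14, edgeR adjusted p = 0.0639) and 0.34 in line 2 (SE 0.14, edgeR adjusted p = 0.338). Both missed the threshold without a term for replicate number. Its partner Aebp2 had log2 fold changes of -0.02 and -0.15. Jarid2 made up 29.2% and 34.9% of their summed RPKM in WT against 38.0% and 42.0% in line 1, and 37.3% and 41.7% in line 2.

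**Figure D2:**
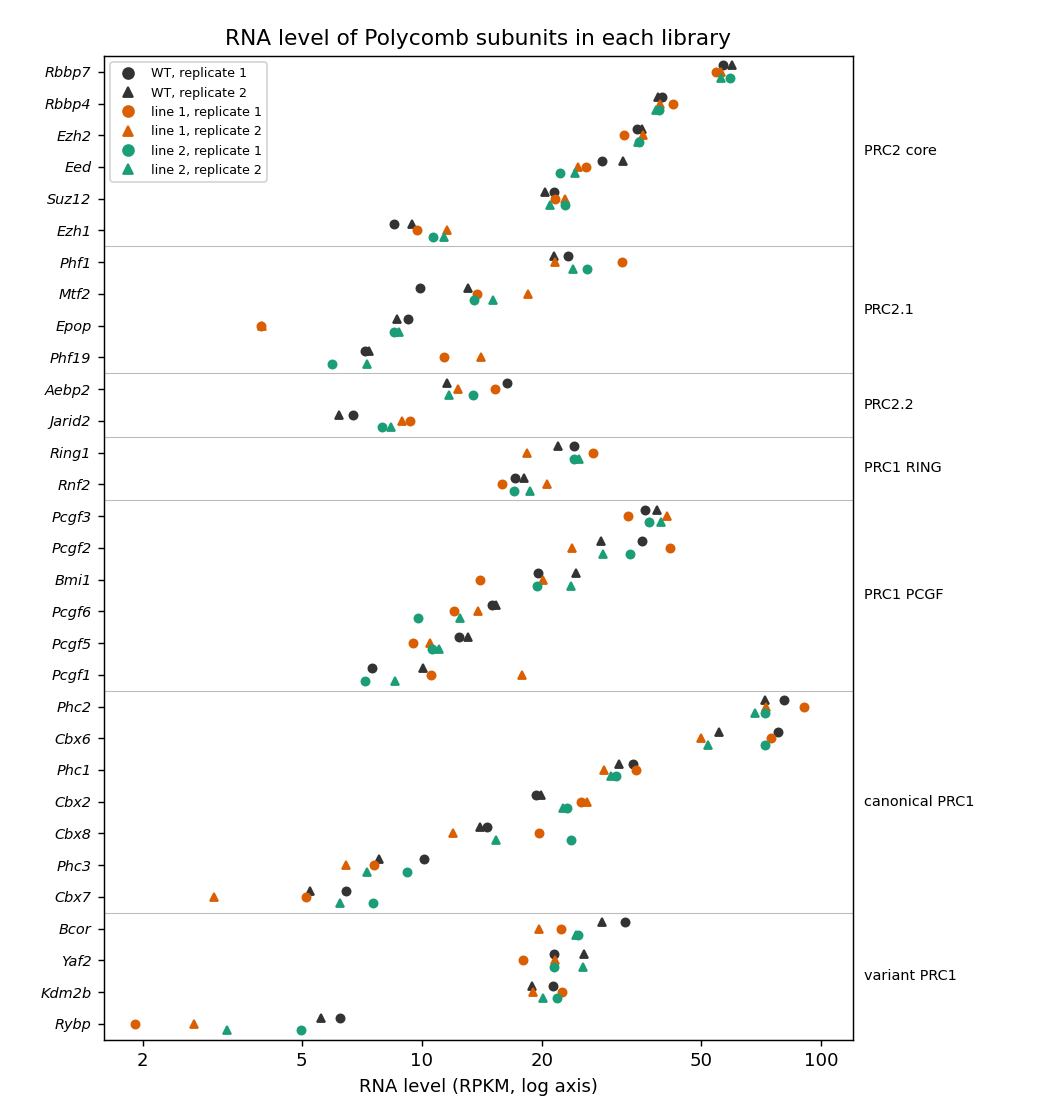
RNA level of the 31 subunits in RPKM on a log axis, 1 point per library, grouped by complex; circles are replicate 1 and triangles replicate 2. In line 1 Epop sits near 4 RPKM against about 9 in the other libraries. Among the core subunits of PRC2, Eed lies lower and Ezh1 higher in every deleted library than in either WT library.

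The catalytic pair of PRC1 did not pass the test in either line. Rnf2 (RING1B), the main H2A ubiquitin ligase, was at 17.1 and 18.0 RPKM in WT against 15.9 and 20.6 in line 1, and 17.0 and 18.7 in line 2. Ring1 was at 24.1 and 22.0 RPKM in WT against 26.9 and 18.3 in line 1, and 24.1 and 24.8 in line 2. For both genes the 2 line 1 libraries enclosed both WT libraries. The log2 fold changes were 0.06 (95% interval -0.35 to 0.47) and 0.02 (-0.38 to 0.43) for Rnf2, and -0.04 (-0.54 to 0.47) and 0.09 (-0.41 to 0.59) for Ring1, in line 1 and line 2. These intervals do not show that the levels were equal.

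PCGF proteins pair with the RING subunit and set the form of PRC1. Without a term for replicate number, none of the 6 genes was called in either line by edgeR or by DESeq2. By edgeR 0 of 6 had an unadjusted p under 0.05 in either line, against 28% of all genes in line 1 and 14.5% in line 2. Pcgf3, which with Pcgf5 builds the PRC1 form that Xist recruits, was the highest at a WT mean of 37.6 RPKM, and its log2 fold change was -0.02 in line 1 (95% interval -0.36 to 0.32) and 0.03 in line 2 (-0.31 to 0.37). Pcgf5 was lower in all 4 deleted libraries than in WT: 12.4 and 13.1 RPKM in WT against 9.50 and 10.5 in line 1, and 10.6 and 11.0 in line 2. Its log2 fold change was -0.34 in line 1 (edgeR adjusted p = 0.307) and -0.23 in line 2 (edgeR adjusted p = 0.709).

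Pcgf1, the PCGF of the BCOR complex, was at 7.52 and 10.1 RPKM in WT against 10.5 and 17.8 in line 1 and 7.22 and 8.56 in line 2. Replicate 2 was above replicate 1 in all 3 groups. Against the WT library of the same number, the log2 difference in line 1 was 0.455 in replicate 1 and 0.788 in replicate 2. The line 1 fold change of 1.62 had a 95% interval of 0.929 to 2.83 (edgeR adjusted p = 0.240). Pcgf6 was below WT in all 4 deleted libraries, with log2 fold changes of -0.22 and -0.44. Bmi1 and Pcgf2 (Mel18), the PCGF proteins of canonical PRC1, had log2 fold changes of -0.36 and 0.03 in line 1 and -0.03 and -0.05 in line 2.

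Of the 7 canonical PRC1 members, the CBX readers and the PHC proteins, none was called by edgeR or DESeq2 without a term for replicate number. By edgeR 1 in line 1 and 0 in line 2 had an unadjusted p under 0.05, against 28% and 14.5% of all genes. Phc2, a polyhomeotic protein that links PRC1 complexes into clusters, had the highest level of all 31 members, 80.6 and 72.2 RPKM in WT. Cbx7 had the lowest, 6.46 and 5.26. Among the CBX genes, Cbx6 made up 58.6% to 65.9% of the summed CBX RPKM in WT and 54.2% to 60.0% in the deleted libraries. Cbx6 shares its span with Npcd on the same strand, so its reads are uncertain.

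Cbx2, a reader that compacts chromatin, was at 19.3 and 19.8 RPKM in WT against 25 and 26 in line 1, and 23.1 and 22.5 in line 2. Both lines lay above WT, and line 1 above line 2. Its log2 fold change was 0.38 in line 1 (SE 0.11, edgeR adjusted p = 0.0730) and 0.22 in line 2 (SE 0.11, edgeR adjusted p = 0.475). Both missed the threshold without a term for replicate number. Cbx8, which lies 7.16 kb away on the opposite strand, had log2 fold changes of 0.13 (95% interval -0.65 to 0.90) and 0.44 (-0.33 to 1.21). Cbx7 was at 5.14 and 3.02 RPKM in line 1 and 7.54 and 6.24 in line 2. The log2 difference between the lines was 0.78, with a 95% interval of 0.04 to 1.52 and an edgeR adjusted p of 0.179.

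**Figure D3:**
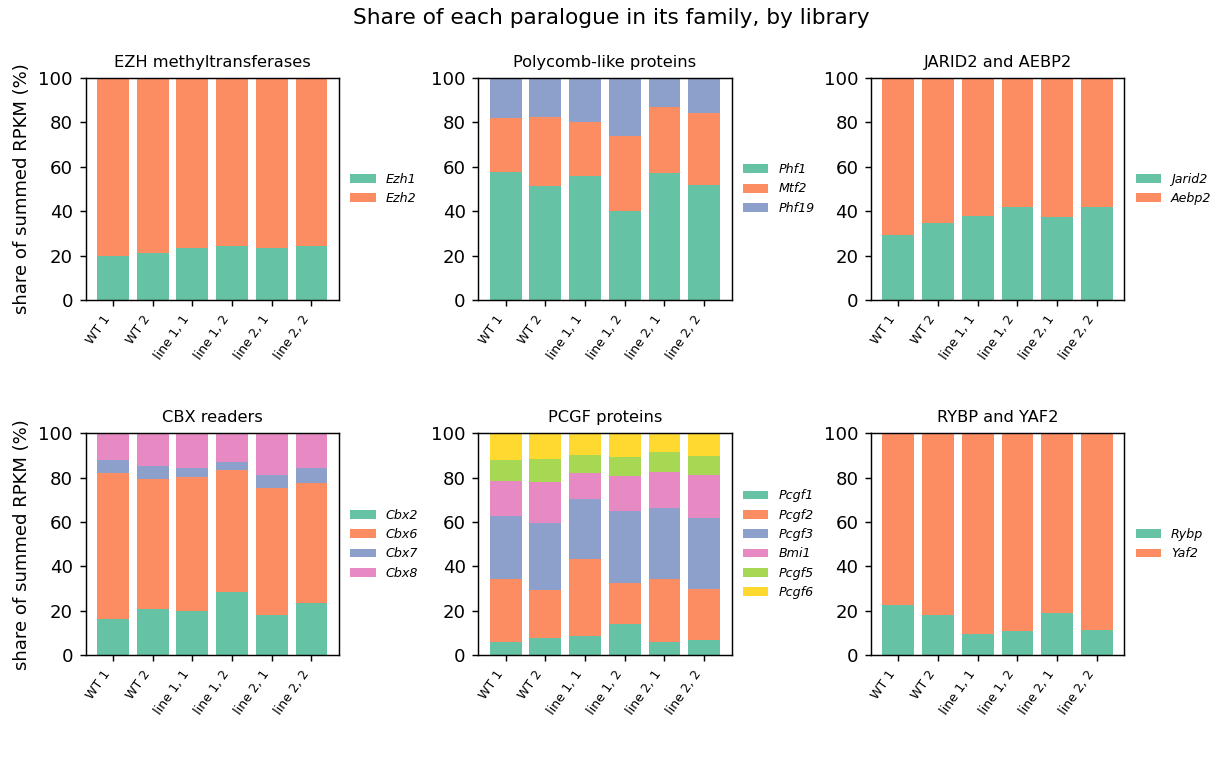
Share of each paralogue in the summed RPKM of its family, in percent, with 1 bar per library (group, then replicate). Rybp held 9.63% and 11.1% of the RYBP and YAF2 sum in line 1 against 22.6% and 18.0% in WT, and Jarid2 held a larger share in all 4 deleted libraries than in either WT library.

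Among the 4 variant PRC1 subunits, 2 were called lower in line 1, against 7.55% of all genes. Over all 31 members the share called in either direction was 12.9%, against 14.3% of all genes. Rybp (chr6:100228565-100287358 on mm10, minus strand), which binds RING1 proteins and ubiquitinated H2A, was at 6.24 and 5.60 RPKM in WT against 1.92 and 2.68 in line 1, and 4.98 and 3.26 in line 2. Both line 1 libraries were below all others, and both line 2 libraries lay between line 1 and WT. Rybp was 2.52-fold lower in line 1 (log2 fold change -1.33, SE 0.29, edgeR adjusted p = 0.0300). In line 2 the log2 fold change was -0.53 (95% interval -1.21 to 0.14, edgeR adjusted p = 0.491). The log2 difference between the lines was 0.80 (edgeR adjusted p = 0.153), so they were not shown to differ.

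Yaf2, the paralogue of Rybp, had log2 fold changes of -0.24 in line 1 (95% interval -0.67 to 0.19) and 0.00 in line 2 (-0.43 to 0.42). Rybp made up 22.6% and 18.0% of the RPKM of the pair in WT against 9.63% and 11.1% in line 1, and 18.9% and 11.4% in line 2. Kdm2b, whose CXXC domain brings variant PRC1 to CpG islands, had log2 fold changes of 0.04 (95% interval -0.29 to 0.38) and 0.06 (-0.27 to 0.39).

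Bcor, the corepressor that joins KDM2B and PCGF1 in variant PRC1, was at 32.3 and 28.2 RPKM in WT against 22.3 and 19.7 in line 1, and 24.6 and 24.3 in line 2. All 4 deleted libraries were below both WT libraries. Bcor was 1.44-fold lower in line 1 (log2 fold change -0.53, SE 0.13, edgeR adjusted p = 0.0399). The log2 fold change in line 2 was -0.31 (95% interval -0.61 to -0.01, edgeR adjusted p = 0.336), and the log2 difference between the lines was 0.22 (edgeR adjusted p = 0.368).

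**Figure D4:**
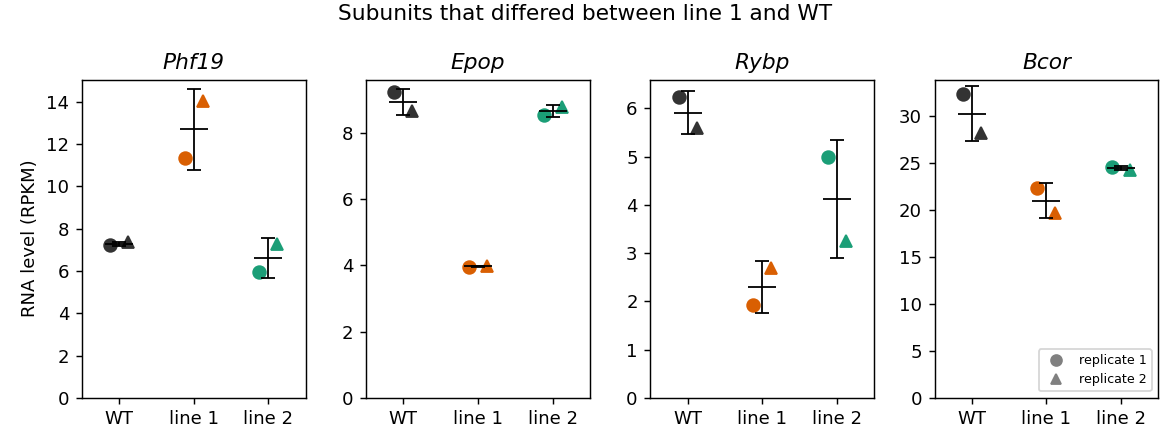
RNA level in RPKM of the 4 subunits called in line 1, with 1 point per library and the mean ± SD of each group (n = 2). Phf19 and Epop in line 2 lie at the WT level, whereas Rybp and Bcor in line 2 lie between line 1 and WT.

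Each of these 4 calls was lost when certain single libraries were left out. Without WT replicate 1 the edgeR adjusted p was 0.203 for Phf19, 0.0840 for Epop, 0.142 for Rybp and 0.258 for Bcor, and without WT replicate 2 it was 0.207, 0.0798, 0.121 and 0.109. The log2 fold changes kept their sign, at 0.79 and 0.83, -1.12 and -1.20, -1.26 and -1.40, and -0.43 and -0.61. The share of all genes called fell too, to 6.1% and 5.83%. Without line 1 replicate 1, Rybp lost its call (edgeR adjusted p = 0.0597), and without line 1 replicate 2, Phf19 (0.0968) and Bcor (0.0864) lost theirs. Line 2 shares the estimate of spread, and without its replicate 1 or 2 Phf19 (0.0771 and 0.0793) and Bcor (0.103 and 0.101) were not called either, whereas Epop and Rybp were. Between the lines, Phf19 lost its call without line 1 replicate 2 (0.0617), WT replicate 1 (0.0641) or WT replicate 2 (0.0636), and both Phf19 and Epop lost theirs without line 2 replicate 1 (0.187 and 0.0943) or line 2 replicate 2 (0.105 and 0.124).

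Replicate 1 was the shallower library in every group. In 22 of 31 members (71%) replicate 1 differed from replicate 2 in the same direction in all 3 groups, against 62.7% of all genes tested. Cbx6 shows it: 77.9 and 55.4 RPKM in WT against 74.8 and 50.2 in line 1, and 72.2 and 52.2 in line 2, with replicate 1 the higher each time. The part of depth in these differences was not tested.

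Bcor and Rbbp7 are the 2 members on the X chromosome, and reads that cover a strain difference had been split by the authors into mus (129/Sv/Jae) and cas (CAST/Ei) alleles. Over 151 X-linked genes with at least 20 allele reads in all 6 libraries, the median mus share in WT was 1.32%, and 131 were under 10%, so the mus X was the largely silent one. The lowest value in the allele table, 0.5, was read as 0, since the table holds no 0. Read so, Bcor, classed Monoallelic in the authors' deposited table, had 0 mus reads of 94 and 119 in WT, 0 of 64 and 103 in line 1, 0 of 80 in line 2 replicate 1 and 1 of 119 (0.840%) in replicate 2. A count of 0 allows a mus share of up to 3.19% and 2.52% in WT against 4.69% and 2.91% in line 1, and 3.75% in line 2 replicate 1; these limits cover counting error only. The lower Bcor RNA was thus read from the cas allele, which gave 23.9 and 19.1 CPM in WT against 17.3 and 14.1 in line 1 and 19.5 and 16.7 in line 2.

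Rbbp7, classed Biallelic in the authors' deposited table, was read mostly from the mus allele. Its mus share was 66.7% and 64.5% of 60 and 93 allele reads in WT against 69.2% and 68.3% of 52 and 101 in line 1, and 66.7% and 68.4% of 60 and 98 in line 2. The 6 values lay close together, with exact 95% intervals from 53.3% to 78.3% in WT replicate 1 and from 58.3% to 77.2% in line 1 replicate 2. The log2 odds of a mus read changed by 0.21 in line 1 (SE 0.39) and 0.15 in line 2 (SE 0.39), with an edgeR adjusted p of 1 in both. In the same test 1.46% of 205 X-linked genes were called in line 1 and 0% in line 2. Of the 151 genes only 3 had a WT mus share over 50%, the others being Morf4l2 and Slc25a5; the part of mapping to either genome was not tested.

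**Figure D5:**
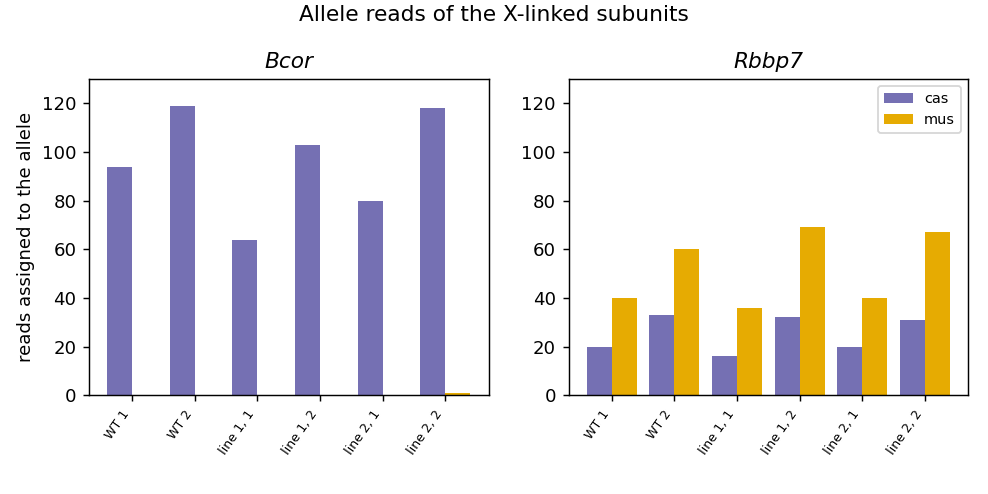
Reads assigned to the cas and the mus allele of Bcor (left) and Rbbp7 (right) in each library. Bcor has 1 mus read in all, in line 2 replicate 2, and Rbbp7 has more mus than cas reads in each of the 6 libraries.

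The authors' deposited lists class X-linked sites of accessibility and of the chromatin remodeler BRG1 by allele. None of the sites lay within the span of either gene on mm10. The site nearest to the start of Rbbp7, upstream of the promoter printed above, was a Monoallelic BRG1 site at chrX:162758519-162758989, 1.38 kb away. Reads of the gene were assigned to both alleles, and the part of mapping in that was not tested. The nearest Monoallelic accessibility site was 24.6 kb away. From the start of the Bcor transcript used here, at the upper end of chrX:12036738-12080553, the nearest sites of their classes were a Monoallelic BRG1 site at 69.0 kb and an XiRestored BRG1 site, by its name one restored on the inactive X, at 149.8 kb. Both lie beyond the far end of the gene. Another Bcor transcript, with a total of 5169 against 5499.5, starts at 12160355, and distances from that start were not taken.

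Outside the subunits, 34 listed Polycomb-linked genes were all tested, with 1 called higher and 1 lower in line 1, and 0 higher and 1 lower in line 2, against 14.3% and 3.58% of all genes (edgeR; medians of the log2 fold change 0.04 and 0.02). Auts2, which turns PCGF3 and PCGF5 forms of PRC1 into activators, was called lower in both lines, which share the WT libraries. It had 82 and 62 reads in WT against 1 and 0 in line 1, and 1 and 1 in line 2. The pooled read rate was 0.643% of WT in line 1 (95% counting interval 0.0162% to 3.64%) and 1.26% in line 2 (0.152% to 4.65%), with an edgeR adjusted p of 0.00393 and 0.0148. The line 2 call was lost without WT replicate 1 (edgeR adjusted p = 0.0586), line 2 replicate 1 (0.0969) or line 2 replicate 2 (0.158).

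Sfmbt1, an MBT-domain Polycomb protein, was at 3.19 and 4.06 RPKM in WT against 6.76 and 7.65 in line 1, and 3.93 and 5.24 in line 2. It rose in line 1 (log2 fold change 0.98, SE 0.21, edgeR adjusted p = 0.0292), had a log2 fold change of 0.34 in line 2 (edgeR adjusted p = 0.594), and the log2 difference between the lines was -0.65 (edgeR adjusted p = 0.110). The line 1 call was lost without WT replicate 1 (0.175), WT replicate 2 (0.0858) or line 1 replicate 2 (0.0689). Cdkn2a and Cdkn2b, cell-cycle inhibitors and classic Polycomb targets in fibroblasts, did not pass the test: their log2 fold changes were 0.01 and 0.41 in line 1 and -0.10 and 0.06 in line 2. The H3K27 demethylase Kdm6a, on the X and read from both alleles with a mus share of 32.4% to 44.7%, had log2 fold changes of 0.01 and -0.26.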

How the data were processed

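RNA-seq values were expected counts per RefSeq transcript on mm10, deposited in steps of 0.5; per the file headers they were counted over exons by HOMER without normalization. Per the submitters' processing notes the tools included Trim Galore 0.4.1, TopHat2, SAMtools, bedtools 2.25.0 and HOMER. Allele values were expected counts deposited per parental allele; the table holds no 0, and the lowest value, 0.5, was read as 0. The deposited site lists and gene classes were used as coordinates and labels with no score.

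The design assumed counts, so exon values were rounded, 0.5 up, and allele values 0.5 down. Of 28972 transcripts, 1 per symbol was kept. All 6 libraries entered 1 quasi-likelihood fit (edgeR 4.0.16, R 4.3.3) with filterByExpr, TMM and 3 residual degrees of freedom; adjusted p under 0.05 was the threshold. Allele shares were tested in edgeR over 205 X-linked genes with at least 10 allele reads in at least 2 libraries, as an allele by group term. Intervals of shares are exact (Clopper-Pearson), and a count of 0 was given a limit of 3 counts.

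Alternatives were DESeq2 1.42.0 and its size factors, no filter, the second-highest transcript, 2 groups alone, a replicate block, and each replicate left out. Genes given in full were called members, X-linked members, the EZH and RING pairs and called Polycomb-linked genes; others were chosen after their values were seen. The members and lists were chosen with earlier results of these data known. ATAC-seq and ChIP-seq tracks were not analysed here.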

Additional observations from a re-analysis of the deposited data

Results flagged for a closer look

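The log2 difference between line 2 and line 1 (line 2 minus line 1) passed edgeR's test of that difference for 2 subunits, -0.938 for Phf19 and 1.12 for Epop, with edgeR adjusted p of 0.0263 and 0.0135. Both differences lost their call when either line 2 library was left out, and that of Phf19 also without line 1 replicate 2 or either WT library.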

How the results depend on the processing

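In line 1, 4 members were called, and the same 4 with DESeq2, DESeq2 size factors, no filter on low counts or the second-highest transcript. Phf19, Epop and Rybp have 1 transcript each, so the second-highest transcript left their counts unchanged. Of the 4, only Bcor had another transcript to use, which had nearly the same total (5169 against 5499.5). With the replicate block 10 were called (5 higher, 5 lower), against 32.4% of all genes, and with only the 2 groups compared 2 were called; leaving out a library gave 0 to 3. Between the lines the 2 calls became 5 with the block, against 27.2% of all genes, and 1 with only the 2 groups, and 0 to 4 with a library left out. In line 2, 0 were called under each of these alternatives. The median log2 fold change of the members in line 1 ran from -0.12 to 0.077 with a library left out, and in line 2 from -0.01 to 0.01. Of the 34 listed genes, 6 and 2 were called with the block in line 1 and line 2, against 32.4% and 12.1% of all genes, and 1 to 3 and 0 to 1 with a library left out. The mus share of Rbbp7 moved little, 0.13 to 0.27 and 0.07 to 0.21 in log2 odds. Of the values of Phf19, Epop, Rybp, Bcor, Rbbp7, Ezh1, Ezh2, Rnf2 and Ring1 under alternatives, 234 kept their direction and side of the threshold. Another 19 lost the call, and 17 changed sign, none of the 17 called under either setting. Among these genes only Bcor had a second transcript to use. The other members were not in this tally, and those that gained a call with the block are named below. With a library left out, the log2 fold change in line 1 ran from -0.14 to 0.030 for Ezh2, -0.15 to 0.23 for Rnf2 and -0.33 to 0.22 for Ring1. In line 2 it ran from -0.093 to 0.00033 for Epop, -0.058 to 0.019 for Rbbp7, -0.033 to 0.0095 for Ezh2 and -0.049 to 0.090 for Rnf2, and without the filter it was 7.7e-05 for Ezh2. Between the lines it ran from -0.073 to 0.18 for Ezh1, -0.041 to 0.13 for Ezh2, -0.20 to 0.17 for Rnf2 and -0.13 to 0.41 for Ring1. Same-numbered replicates deviated together across genes (r of 0.547, 0.604 and 0.537 over 12910 genes), but the groups share only 2 numbers, so the numbers were not taken as pairs, and the 6 members called with the block alone in line 1 (Bmi1, Cbx2, Jarid2, Mtf2, Pcgf1 and Phc3), like the 3 called with it alone between the lines (Bmi1, Cbx7 and Pcgf1), are given here alone. Leaving out libraries of the third group was chosen after seeing the data. Where leaving out a library left an arm with 1 library, that library was assumed to vary like the other groups.

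With 2 libraries a group, the interval of an uncalled subunit was often wide, as for Pcgf1 (a fold of 0.929 to 2.83 in line 1), so a missed threshold does not show equal levels. Why calls changed with a library left out was not tested beyond the lower number of libraries.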
